A study of Mus musculus with 415 samples.

Results

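Dll1, Notch1 and Hes1 were read here as 3 stretches of chromatin in single cells. Dll1 is a Notch ligand, Notch1 a Notch receptor and Hes1 a transcription factor gene that Notch signalling switches on. The accessibility table gave 15 of its 23180 regions for them, chosen by position alone as the regions that overlap 3 windows on the mouse build mm9. Dll1 had 5 regions in the window chr17:15480000-15530000. Notch1 had 4 in chr2:26290000-26390000, and Hes1 had 6 in chr16:30030000-30110000. All 15 lay wholly inside their windows. They are numbered here along the chromosome within each window, from the lowest coordinate.

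The culture came from R1, a mouse embryonic stem cell line. Embryoid bodies formed in hanging drops over 48 hours, and retinoic acid, a vitamin A product that turns stem cells from self-renewal to differentiation, was then given for 4 days at what the labels write as 0.5 mM. Single-cell ATAC-seq marks open chromatin through the cuts of the Tn5 transposase, and each sample was 1 cell caught on a Fluidigm C1 chip. All cells carried the same treatment and time, with no untreated group and no separate cultures named, so the series is 1 sample in the statistical sense. No p-value was computed, and intervals are exact 95% intervals that cover counting error only.

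Notch signalling passes between touching cells. A Delta-type ligand on 1 cell pulls on a Notch receptor on its neighbour, the receptor is cut, and its intracellular part enters the nucleus, where it joins the DNA-binding protein RBPJ and activates target genes such as Hes1. Hes1 is a basic helix-loop-helix repressor, and in neural progenitors of the embryo it holds down proneural genes and Dll1 itself, so that neighbouring cells come to differ. Hes1 also answers to signals other than Notch.

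The sequence just before a gene's start is where such control is often read, so the RefSeq promoters (build GRCm38.p6) of the ligand and the receptor are shown. The promoter table held 2 of the 3 genes by symbol, Dll1 and Notch1; Hes1 had no entry. The 250 bases before the start were searched on both strands for TGGGAA, the core letters bound by RBPJ, and CACNAG, the N box bound by Hes-type repressors; these motifs do not overlap each other here, and matches are in capitals. Dll1 has 2 listed starts, and the sequence shown precedes the upstream one, at chr17:15376933-15377182 on the minus strand. The Notch1 sequence is at chr2:26503823-26504072 on the minus strand.
Dll1: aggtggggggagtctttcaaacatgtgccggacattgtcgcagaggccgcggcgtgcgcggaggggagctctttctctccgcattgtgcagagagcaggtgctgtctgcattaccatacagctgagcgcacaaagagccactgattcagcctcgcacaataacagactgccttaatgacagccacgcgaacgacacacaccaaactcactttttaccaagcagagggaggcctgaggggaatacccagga
Notch1: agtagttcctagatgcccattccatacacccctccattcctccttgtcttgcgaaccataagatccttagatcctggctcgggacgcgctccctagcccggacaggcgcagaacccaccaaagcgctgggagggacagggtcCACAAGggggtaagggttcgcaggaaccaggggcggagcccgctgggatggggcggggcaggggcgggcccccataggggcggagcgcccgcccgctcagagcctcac

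Notch1 held 1 CACNAG match and 0 of TGGGAA, and the Dll1 sequence held 0 of either. Over the 32851 promoters of the table, 21.6% held TGGGAA and 36.7% held CACNAG in the same 250 bases. A match is a string of letters and not a binding site. The promoters held 56% (Dll1) and 66% (Notch1) G and C, against a median of 52.4% over the table. They could not be laid over the accessibility regions, which are on mm9, because no genome or annotation of that build was used here and coordinates were not carried between builds.

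For the same reason no region was assigned to a promoter, exon or intron. Gene lengths in the GRCm38 annotation still limit what the windows can show, if lengths are taken as alike on both builds. Hes1 spans 2440 bp, and a gene of that length can touch at most 2 of its 6 regions, so at least 4 lie outside the gene. Dll1 spans 9579 bp and can touch at most 4 of 5. Notch1 spans 45921 bp, while 54423 bp separate its region 1 from its region 3, so these cannot both lie in the gene. The nearest protein-coding neighbours are Sec16a and Egfl7 for Notch1, Ermard and Fam120b for Dll1, and Opa1 and Cpn2 for Hes1. The lengths do not say which of regions 1 and 3 of Notch1 lies outside. Results for Notch1 are given with and without region 1, a choice made after seeing the data. Region 1 stood 40782 bp from the nearest other region.

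Depth, taken here as the number of open regions in a cell, varied widely. Cells had a median of 3928 open regions (range 756 to 12267) and 4529 fragments (791 to 25069), where a fragment is the deposited signal of 1 read pair. Any value above 0 counted as open. Every region of the table was open in at least 31 cells, and rarer ones were not analysed here.

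The ligand's window was moderately accessible. Region 3 of Dll1 (chr17:15512567-15514086) was open in 32.05% of cells (interval 27.6% to 36.8%). Region 5 (chr17:15517656-15519527) followed with 24.3% (20.3% to 28.8%), and its interval overlapped that of region 3. Region 1 (chr17:15480026-15480569) was open in 18.6% of cells, region 2 (chr17:15508766-15509239) in 16.4% and region 4 (chr17:15515659-15516000) in 10.8%. Open cells carried a median of 1 fragment in region 5, and the highest value of any cell there was 3.54 fragments.

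The receptor's window held the most widely open regions of the 15. Region 1 (chr2:26300448-26301646) was open in 58.1% of cells (53.2% to 62.9%), which is above 99.3% of all regions. Region 3 (chr2:26356069-26358127), the widest of the 15 at 2058 bp, was open in 44.6% (39.7% to 49.5%). Their intervals did not overlap. Region 4 (chr2:26359058-26359723) was open in 20.5% and region 2 (chr2:26342428-26343576) in 16.6%. In region 1, 51.04% of the open cells held more than 1 fragment, with a highest value of 9.32, and in region 3 48.1% did.

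At Hes1, 1 region stood above 5 sparser ones. Region 3 (chr16:30063382-30064589) was open in 32.05%, the same share as Dll1 region 3. Region 4 (chr16:30065192-30065480), 603 bp away, was open in 17.6% (14.05% to 21.6%). Region 5 (chr16:30070348-30070744) was open in 10.8%. The other 3 were near the minimum of the table, with region 2 (chr16:30055624-30056324) in 8.67%, region 6 (chr16:30102006-30103143) in 8.43% and region 1 (chr16:30047578-30048066) in 7.47%, the lowest share that any region of the table has.

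**Figure D1:**
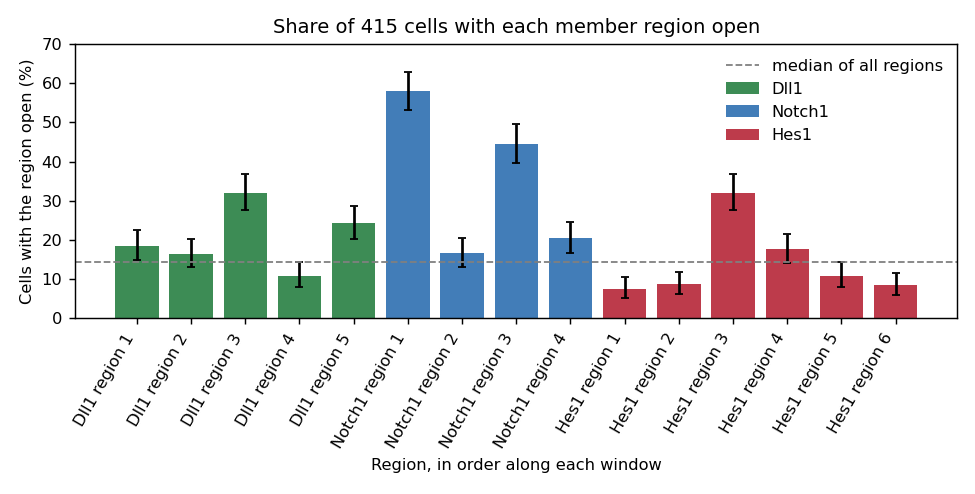
Percentage of all cells with each of the 15 regions open (bars, exact 95% intervals), in order along each window, with the median of all regions as a dashed line. Notch1 regions 1 and 3 are the tallest at 58.1% and 44.6%, and the Dll1 and Hes1 windows each peak at region 3 with 32.05%.

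Over the 15 regions the median share of open cells was 17.6%, against 14.5% over all 23180 regions, and 10 of the 15 lay above that median. By locus the medians were 18.6% for Dll1, 32.5% for Notch1 and 9.76% for Hes1. Shares are not scaled by width, and whether width moved them was not tested. The widest of the 15 regions spanned 2058 bp, and their median width was 700 bp, against 762 bp over all.

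Counted as loci, with any region of the window open, Notch1 was open in 78.8% of cells (74.5% to 82.6%), Dll1 in 59.04% (54.1% to 63.8%) and Hes1 in 53.3% (48.3% to 58.1%). The intervals of Dll1 and Hes1 overlapped, and both lay below that of Notch1. Without its region 1, Notch1 was open in 56.9% of cells (51.9% to 61.7%), which overlaps the interval of either other locus. All 3 shares climbed with the depth of the cells. Depth is itself a count of open regions, so such a rise is partly built in. Cells with more open chromatin cannot be told apart here from cells read more deeply. From the shallowest to the deepest of 4 depth classes of cells, Dll1 was open in 26.9%, 51.9%, 68.9% and 88.5%. Notch1 was open in 52.9%, 73.1%, 91.3% and 98.1% of these classes, and Hes1 in 29.8%, 46.2%, 56.3% and 80.8%. Co-opening was therefore set against the number expected from depth.

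Whether ligand, receptor and target opened in the same cells was asked first at the level of loci. Taken at face value they did: Notch1 was open in 86.9% of the cells with Dll1 open and in 67.1% of those with Dll1 closed, and Hes1 in 60% and 43.5% of the same cells. Hes1 was open in 58.1% of the cells with Notch1 open and in 35.2% of those with Notch1 closed. Scaled by depth, no excess was seen. Dll1 and Notch1 were both open in 51.3% of cells, where 50.2% was expected, a ratio of 1.02 (interval 0.890 to 1.17). Dll1 and Hes1 were both open in 35.4% with 35.7% expected (ratio 0.991, 0.837 to 1.16). Notch1 and Hes1 shared 45.8% of cells with 45.5% expected (1.01, 0.868 to 1.16). Without Notch1 region 1, its ratios were 1.05 with Dll1 (0.900 to 1.23) and 0.948 with Hes1 (0.795 to 1.12). Each of the first 3 intervals holds 1, and a ratio of 1.2 lies above them.

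The joint states of the 3 loci also followed depth. All 3 were open in 32.8% of cells, where 31.996% was expected, and none in 36 cells (8.67%), where 34.7 were expected. Exactly 2 loci were open in 34.2% of cells and 1 in 24.3%, where 35.5% and 24.2% were expected. Among all pairs of 100 kb bins on different chromosomes, 8.9% reached a ratio of 1.2 and 11.2% were at or below 1/1.2. With at least 100 expected cells, as the 3 pairs have, these shares were 0.000667% and 0.0141%. Widely open bins are limited in the same way in how high their ratio can go. The median ratio of the bin pairs was 0.998.

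**Figure D2:**
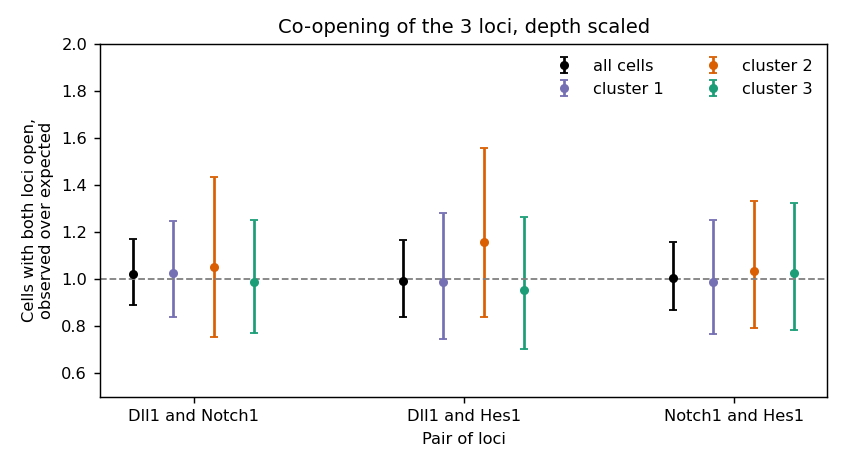
Cells with both loci open, observed over expected from depth, for each pair of loci in all cells and within each cluster of cells, with exact Poisson 95% intervals of the observed count. Over all cells the ratios are 1.02, 0.991 and 1.01, and every interval in the plot holds 1. A pair cannot share more cells than either locus has open. The Poisson intervals ignore this limit, and some within clusters run beyond it, so holding 1 does not show that co-opening was absent.

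Pairs of single regions spread more widely around 1 than the whole windows. Of the 20 pairs of a Dll1 with a Notch1 region, 18 had a ratio above 1, with a median of 1.06 and a range of 0.971 to 1.66. Pairs of a Notch1 with a Hes1 region leaned the other way: 6 of 24 were above 1, with a median of 0.925 (0.498 to 1.10). Between Dll1 and Hes1, 9 of the 29 pairs with at least 5 expected cells were above 1, with a median of 0.946 (0.379 to 2.07). Pairs share regions and are not independent of each other.

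Of the 73 such pairs between loci, 2 reached a ratio of 1.5 and 7 were at or below 1/1.5. Over all region pairs on different chromosomes the shares were 3.26% and 7.84%, and the median was 0.996. The count of high pairs is thus near the background and that of low ones, which were all pairs with Hes1, is close to it. The lowest was Dll1 region 1 with Hes1 region 1, both open in 3 cells where 7.91 were expected (ratio 0.379, 0.0782 to 1.11). Notch1 region 3 and Hes1 region 1 shared 10 cells where 17.6 were expected (0.570, 0.273 to 1.05). At the other end, Dll1 region 4 and Hes1 region 6 shared 11 cells with 5.32 expected (2.07, 1.03 to 3.70), and Dll1 region 4 with Notch1 region 2 shared 17 with 10.3 expected (1.66, 0.965 to 2.65).

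Inside the windows, the summed ratio over pairs was 1.18 for Dll1, 1.04 for Notch1 and 1.16 for Hes1. All 10 pairs within Dll1 were above 1, with a median of 1.19, and the highest was region 2 with region 4 at 1.68 (0.979 to 2.69). Within Notch1 the median of the 6 pairs was 1.09. At Hes1, regions 2 and 5, which lie 14024 bp apart with region 3 and region 4 between them, were both open in 12 cells where 5.47 were expected (2.20, 1.13 to 3.83). Regions 1 and 2 shared 10 cells with 3.8 expected (2.63, 1.26 to 4.84), too few expected cells to count beside the others. Hes1 regions 1, 2 and 5 were all higher in 1 cluster of cells described below, where such pairs are set against the clusters. Of the 27 pairs within a window that had at least 5 expected cells, 2 reached 1.5, where 6.65% of all pairs under 100 kb apart on 1 chromosome did. By distance, the member pairs lay on either side of all pairs on 1 chromosome. The summed ratio was 1.13 for member pairs and 1.14 for all pairs under 2 kb apart, and 1.21 and 1.10 at 2 to 10 kb. It was 1.14 and 1.06 at 10 to 50 kb, and 0.958 and 1.04 at 50 to 100 kb.

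**Figure D3:**
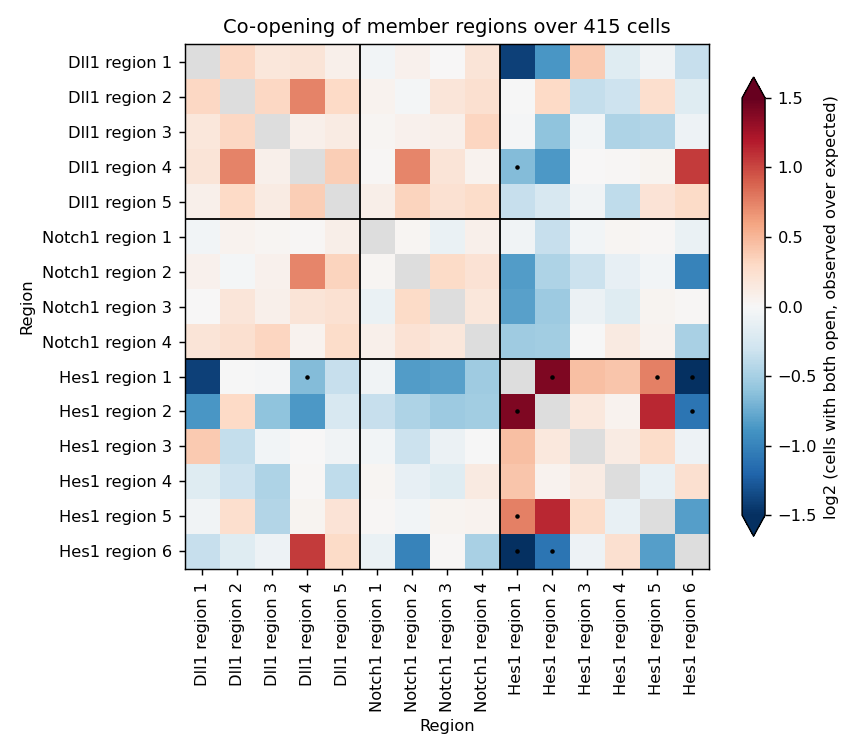
Log2 of the observed over expected number of cells with both regions open, for every pair of the 15 regions over all cells; dots mark pairs with under 5 expected cells, and black lines separate the loci. The Dll1 and Notch1 block is mostly pale red, the blocks that join Hes1 regions 1 and 2 to the other loci are mostly blue, and those 2 regions pair with each other and with Hes1 region 5 in red.

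The cells were then divided into 3 clusters by their accessibility on the 16 autosomes other than 2, 16 and 17, so that no region of the 3 loci helped to make them. Cluster 1 held 49.3% of the cells, cluster 2 25.4% and cluster 3 25.4%. Median depth was 3332.5, 3770 and 4979 open regions. The clusters are called by number, because the table names no genes by which to name a cell type. To count as higher or lower in a cluster, a region's observed over expected share had to differ at least 2-fold from that of the other cells, with exact intervals that do not overlap. This is a rule of size and not a test across replicates.

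Cluster 2 combined the most open Hes1 window with the least open Dll1 and Notch1 windows. In it, 4 of the 15 regions were higher, all at Hes1, and 4 were lower, at Dll1 and Notch1. Of the 3629 regions on chromosomes 2, 16 and 17, 9.26% were higher and 11.1% were lower in this cluster. Cells of cluster 2 had on average 1.38 of the 6 Hes1 regions open where 0.830 were expected, a ratio of 1.66, against 0.783 in the other cells. They had 0.590 of the 5 Dll1 regions open where 1.0 was expected (0.590, against 1.14 in the other cells). The ratio for the 4 Notch1 regions was 0.749 in cluster 2, against 1.09 in the other cells, and without region 1 it was 0.542, against 1.15. The counts of 4 and 4 were 1 and 0 once every cell was thinned to 1500 open regions, and 3 and 0 among cells of at least median depth. No fold of the 8 turned its direction, but the 8 were picked by size in these same cells, so little can be read from that.

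Hes1 region 1 was open in 23 cells of cluster 2 (21.9%, with an interval of 14.4% to 31.03%), against 8 cells elsewhere (2.59%, 1.12% to 5.04%). Scaled by depth, its share in cluster 2 was 8.92-fold that in the other cells, but 1.81-fold, and no longer counted as higher, after thinning. Hes1 region 2 was open in 26 cells of cluster 2 (24.8%, 16.9% to 34.1%) and in 10 other cells (3.24%, 1.56% to 5.87%), 8.05-fold. After thinning the fold of region 2 was 16.3. Both regions had few more open cells than the 31 that every region of the table has, 31 and 36 in all. Without cluster 2 they would fall below that number, so they are in the table through the cluster where they are high, and the size of these folds is partly set by that.

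Hes1 regions 4 and 5 had smaller folds than regions 1 and 2. After thinning, their folds were 2.03 and 1.81, beside 1.81 for region 1. Hes1 region 4 was open in 29.5% of cluster 2, with an interval of 21.02% to 39.2%. The other cells had it open in 13.6% (9.97% to 17.9%), which gives 2.26-fold after scaling. Region 5 was open in 20% of cluster 2 (12.8% to 28.9%) and in other cells at 7.77% (5.04% to 11.3%), 2.70-fold. With 24 open cells outside cluster 2, region 5 would also fall below 31 without it. The size of its fold is thus partly set by that too. Region 3, the most open of the window, was open in 36.2% of cluster 2 and 30.7% of the other cells, a fold of 1.2 with overlapping intervals. Region 6, 31262 bp beyond region 5, was open in 5.71% of cluster 2 and 9.39% of the other cells, a fold of 0.641. Of the 6 regions, 4 were thus higher in cluster 2 and 2 did not meet the rule. Of the higher ones, only region 4 had more than 31 open cells outside cluster 2, with 42.

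At Notch1 the differences ran the other way. Region 3 was open in 23 cells of cluster 2 (21.9%, 14.4% to 31.03%). The other cells had it open in 52.4% (46.7% to 58.1%), so the fold was 0.417. Region 2 was open in 6 cells of cluster 2 (5.71%, 2.13% to 12.02%) and in 63 others (20.4%, 16.04% to 25.3%), a fold of 0.292. Region 4 had a fold of 0.761, with overlapping intervals. Region 1, the most widely open, had a fold of 1.04. It was open in 60.95% of cluster 2, with an interval of 50.9% to 70.3%, and in 57.3% of the rest, with one of 51.6% to 62.9%.

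For Dll1 all 5 folds in cluster 2 were below 1. Region 1 was open in 7.62% of cluster 2 (3.35% to 14.5%), against 22.3% elsewhere (17.8% to 27.4%), which is a fold of 0.354. Region 3 was open in 18.1% of cluster 2 (11.3% to 26.8%), against 36.9% elsewhere (31.5% to 42.5%). Its fold of 0.499 falls just inside the 2-fold rule. Region 5, at 0.570, fell just outside it. Region 4 had a fold of 0.386 on 5 open cells of cluster 2 and missed the rule because its intervals overlapped. Region 2 had a fold of 0.794.

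**Figure D4:**
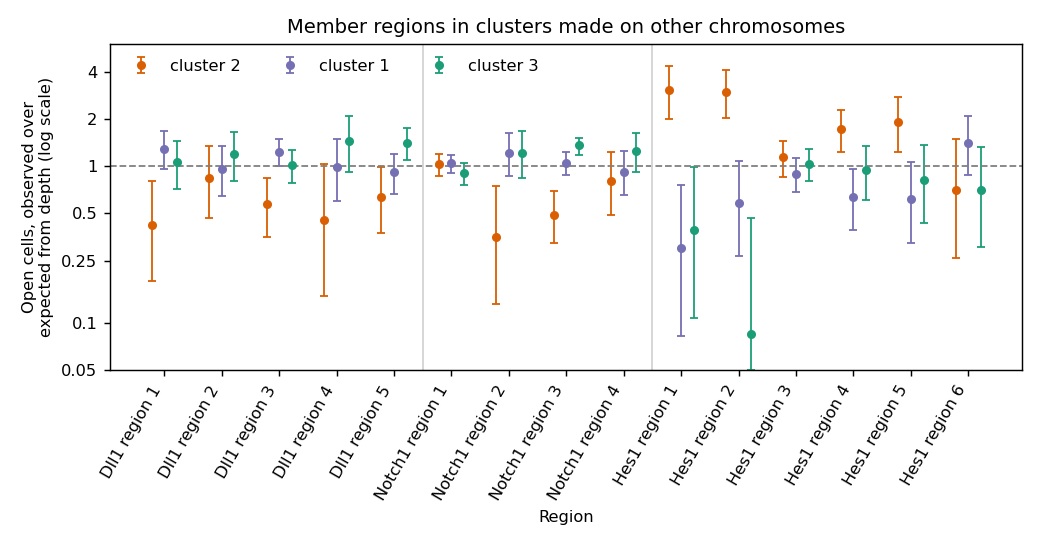
Open cells over those expected from depth (log scale) for each of the 15 regions in cluster 2, cluster 1 and cluster 3, with exact 95% intervals; the interval of Hes1 region 2 in cluster 3 runs below the axis. Cluster 2 lies near 3 at Hes1 regions 1 and 2, at 1.03 at Notch1 region 1 and at 0.353 to 0.809 at Notch1 regions 2 to 4.

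Clusters 1 and 3 differed less from the rest. In cluster 1, Hes1 regions 1 and 4 were lower, open in 1.96% and 9.80% of its cells against 12.9% and 25.2% of the other cells, and 0 regions were higher. Cluster 2 held 23 of the 27 other cells with Hes1 region 1 open, and cluster 3 had it open in 3.81%. Region 4 was open in 20.95% of cluster 3. Over the 3 held-out chromosomes, 7.96% of regions were lower in cluster 1 and 4.41% higher. In cluster 3, 1 region was lower, against 4.41% of all on those chromosomes. It was Hes1 region 2, open in 1 cell of it (0.952%, with an interval of 0.0241% to 5.19%), against 35 cells (11.3%) elsewhere. Of these 35 cells, 26 were in cluster 2, and cluster 1 had the region open in 4.41%. The calls at Hes1 regions 1 and 2 thus rest largely on cluster 2, through which both are in the table. None was higher, where 7.22% of all regions were. Notch1 region 3 was nevertheless open in 72.4% of cluster 3, against 35.3% elsewhere, a fold of 1.61 after scaling. Dll1 region 5 was open in 42.9% of cluster 3, against 18.1% elsewhere, a fold of 1.73. Both stayed under the 2-fold rule, although the intervals of the depth-scaled shares did not overlap.

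As whole loci, with any region open, the clusters differed less. No region was picked by its values here, but the Hes1 locus still counts regions 1, 2 and 5. Hes1 was open in 72.4% of cluster 2, 40.2% of cluster 1 and 60% of cluster 3, with ratios to the expected share of 1.34, 0.829 and 0.963 in the same order. Dll1 was open in 45.7% of cluster 2, 58.8% of cluster 1 and 73.3% of cluster 3, with ratios of 0.761, 1.09 and 1.08. Notch1 was open in 74.3%, 76.5% and 88.6%, with ratios of 0.913, 1.03 and 1.03. None of these loci met the 2-fold rule in cluster 2.

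The tilt between single regions was smaller within clusters. Over all clustered cells, the summed ratio was 1.09 for Dll1 with Notch1 regions, 0.926 for Dll1 with Hes1 and 0.913 for Notch1 with Hes1. With the expected number taken within each cluster, these were 1.04, 1.02 and 0.973. Within Hes1, over all 15 pairs, the ratio was 1.16 over all cells and 1.10 within clusters, and within Dll1 it was 1.18 and 1.10. Over the 6 pairs among Hes1 regions 1, 2, 4 and 5, picked for being higher in cluster 2, it was 1.44 and 1.10. At the level of loci the ratios within cluster 2 alone were 1.05 for Dll1 and Notch1 (0.752 to 1.43), 1.16 for Dll1 and Hes1 (0.838 to 1.56) and 1.04 for Notch1 and Hes1 (0.793 to 1.33). In cluster 2, ligand and target were both open in 43 cells, where 37.1 were expected. Dll1 was open in 48 cells of that cluster, so the count could not exceed 48, and even that would leave 1 inside the interval. The interval therefore cannot decide whether there was an excess within cluster 2.

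Cluster 2 was unevenly spread over the numbers in the cells' titles, and no label says what these stand for. In 4 consecutive sets it made up 35.6%, 37.9%, 13.5% and 14.6% of the cells. Over these sets, the depth-scaled ratio of the Dll1 locus was 0.860, 0.925, 1.06 and 1.14, that of Notch1 0.997, 0.994, 1.04 and 0.969, and that of Hes1 1.05, 1.01, 0.966 and 0.978. Cluster 2 was set against clusters 1 and 3 within each set. The 6 Hes1 regions together had folds of 1.76, 2.75, 1.94 and 2.22. Dll1 had folds of 0.466, 0.616, 0.557 and 0.609. The 4 Notch1 regions had 0.642, 0.728, 0.819 and 0.510, and without region 1 0.302, 0.607, 0.754 and 0.138. The summed folds thus lay on the same side of 1 in every set, although the last sets held 14 and 15 cells of cluster 2. The clusters were made on the cells of all sets together, so the sets are not separate tests of them. The Hes1 sum also includes regions 1, 2 and 5, which had fewer than 31 open cells outside cluster 2. Its folds above 1, here and in the deeper cells below, are thus partly set by that. Hes1 region 3 had a fold of at most 1.43 in any set, and Hes1 region 4 had folds of 1.56 to 2.73. Single regions varied more: Hes1 region 5 had a fold of 1.02 in the first set, and Notch1 region 3 one of 0.936 in the third. Among the deeper cells, at or above the median, the summed folds were 2.32 for Hes1, 0.552 for Dll1, 0.766 for Notch1 and 0.595 for Notch1 without region 1.

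**Figure D5:**
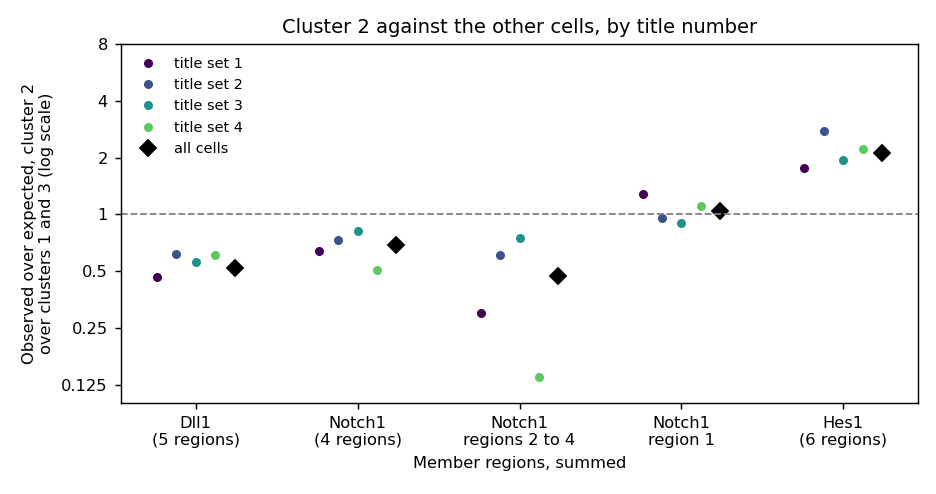
Depth-scaled accessibility of cluster 2 over that of clusters 1 and 3 (log scale), for summed member regions, in 4 consecutive sets of cells by title number and in all cells. The 6 Hes1 regions lie between 1.76 and 2.75, Dll1 between 0.466 and 0.616, and Notch1 between 0.510 and 0.819 with its region 1, which alone lies between 0.905 and 1.28. The Hes1 sum includes regions 1, 2 and 5, which had fewer than 31 open cells outside cluster 2, so its height is partly set by that.

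Regions elsewhere in the genome were ranked by likeness to each locus, the correlation over cells of depth-corrected values with the locus' summed value, on other chromosomes. All regions share the cells and their depth. For Hes1 the 5 highest were chr9:66925431-66926179 (0.317), chr13:45915848-45916564 (0.313), chr4:153792335-153792863 (0.295), chr19:3674355-3675026 (0.292) and chr3:151971428-151971803 (0.292). For Dll1 the correlations of the first 5 ran from 0.255 to 0.266, led by chr7:150630879-150631963, and for Notch1 from 0.208 to 0.238, led by chr8:31758832-31759318. The 99th percentile over all regions was 0.193 for Hes1, 0.161 for Dll1 and 0.140 for Notch1. Nothing is read from the levels of these regions in the clusters, since they were picked for following the loci over the same cells and most of them helped to make the clusters. The table pairs none of them with a gene.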

How the data were processed

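The deposited table gives signal per region and cell as whole numbers, made by the authors on mm9 with MACS2 among the tools, per the submitters' processing notes. No aligner is named there. Duplicate handling and region choice: not given in the sources used here. Of the values above 0, 37.6% equal 148, read here as the bases of 1 read pair. Positions are those of the table, unchanged; whether starts count from 0 or 1 is not stated. All 415 columns were mapped to samples by title.

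The probability that a region is open in a cell was fitted as 1 − exp(−region rate × cell rate), matching row and column sums; a locus got its own rate. Ratios divide observed by expected cells, with Poisson intervals that set no upper limit on the count. Shares have Clopper-Pearson intervals. Clusters used the 414 cells with at least 1000 fragments (204, 105 and 105 in clusters 1 to 3): TF-IDF (scaled by 10000), singular value decomposition, components 2 to 10, k-means with 50 starts (scikit-learn 1.9.0, numpy 2.4.6, scipy 1.17.1). The fit, the ratios of region pairs and the calls for a group known in advance were tested on cells simulated from the fitted model. The clustering, the ratios of loci and the Poisson intervals were not tested in this way. Ratios of pairs were counted from 5 expected cells.

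The members, the number of clusters and the lists were chosen with earlier results of these data known. Values are given for all 15 regions, and the 5 regions most like each locus were named. The other Notch pathway genes listed for this work (Dll3, Dll4, Jag1, Jag2, Notch2 to Notch4, Rbpj, Hes5, Hey1 and others) could not be placed on mm9 and were not analysed here.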

Additional observations from a re-analysis of the deposited data

How the results depend on the processing

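Both the levels and the cluster comparison moved with depth and with the definition of open. With more than 1 fragment required, the median share over the 15 regions was 3.86%, and Dll1, Notch1 and Hes1 were open in 19.8%, 42.7% and 18.8% of cells. Among the deeper cells, at or above the median, these loci were open in 78.8%, 94.7% and 68.8%, and with every cell thinned to 1500 open regions, which left out 33 cells, in 30.9%, 41.6% and 24.1%. Without its region 1, an alternative chosen after seeing the data, Notch1 was open in 56.9%. The co-opening ratios of loci stayed within the interval of the main value under every alternative except 1: thinned cells gave 0.810 for Notch1 and Hes1 (0.550 to 1.15), and the cause was not tested. Cells within title sets gave ratios of 0.912 to 1.07.

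In cluster 2, 4 regions were higher and 4 lower. More than 1 fragment gave 2 and 1, thinned cells 1 and 0, and the deeper cells, chosen after seeing the data, 3 and 0; these settings use fewer open values or fewer cells. None of the 8 folds changed direction under any alternative that gave one, which is a weak check, since the 8 were picked by size in the same cells. Hes1 region 1 had no open cell outside cluster 2 with more than 1 fragment or in title set 2, and so no fold. Within the 4 title sets, an alternative chosen after seeing the data, 6, 5, 8 and 7 of the 8 calls were lost, with fewer cells in each; the folds nearest to 1 were 1.02 for Hes1 region 5 in set 1 and 0.936 for Notch1 region 3 in set 3. With 2 and 4 clusters all 8 were called, and with the first component kept 6 were. After thinning, the fold was 16.3 for Hes1 region 2 but 1.81 for Hes1 region 1. The counts for clusters 1 and 3, 2 and 1 regions, were 0 for cluster 1 with more than 1 fragment, 0 and 2 in the deeper cells, 0 and 0 after thinning, 8 and 8 with 2 clusters (where both match the same cluster), 0 for cluster 1 with 4 clusters, and 0 and 2 with the first component kept. No paired analysis was possible because the labels give 1 group.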
